A study of Mus musculus with 9 samples.

Results

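The cornified envelope genes of the epidermis were represented by 56 probe sets of 44 genes, out of 34945 probe sets annotated to a single gene and 45037 probe sets in all, controls left out. Members were all probe sets annotated to a single gene whose symbol starts with Lce or Sprr, or is 1 of 22 further names: Lor, Loricrin, Ivl, Flg, Flg2, Hrnr, Rptn, Tgm1, Tgm3, Tgm5, Casp14, Cnfn, Ppl, Evpl, Krtdap, Crct1, Kprp, Asprv1, Sbsn, Dmkn, Scel and Cst6. The rule reads gene names only, with no measured value in it, but the names were chosen with earlier results of these data known. Counts of members set beside all probe sets are therefore not an independent test. For 2 of those names, Flg2 and Loricrin, no probe set was listed, and loricrin was measured under its symbol Lor. Lce genes gave 17 probe sets of 15 genes and Sprr genes gave 9 probe sets of 9 genes. RefSeq GRCm38.p6 placed 31 of the 44 genes on mouse chromosome 3.

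RNA came from ear skin of C57BL/6 mice, 6 h after a compound was put on the surface of the ear. DNFB (dinitrofluorobenzene), named an allergen in the labels, went on the right ear in 3 samples. BAC (benzalkonium chloride), named an irritant, went on the right ear in 3 samples. The vehicle, acetone and olive oil, went on the left ear in 3 samples, so the treatment and the side of the ear cannot be told apart. The labels name no dose, no age or sex of the mice, and do not say whether a treated and a vehicle ear came from 1 mouse. Nothing in the labels states that arrays of a group were separate animals, so p-values here refer to array-to-array spread that may be technical.

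The cornified envelope is the crosslinked protein shell that replaces the plasma membrane of a keratinocyte as it dies at the skin surface. Involucrin, envoplakin and periplakin line the membrane first, loricrin and the small proline-rich proteins (SPRR) are then crosslinked onto them by transglutaminases, and the late cornified envelope (LCE) proteins join in the uppermost living layers. Most of these proteins are encoded side by side in the epidermal differentiation complex on mouse chromosome 3, which also holds filaggrin and its relatives, large proteins with S100-type calcium-binding domains. Filaggrin bundles keratin and is later broken down into small moisturising compounds of the outer layer.

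Expression was measured as MAS5 signal, a linear intensity with no read depth behind it. The trimmed mean was 250.001 on every array and medians lay between 71.2 and 86.3, so levels are relative to the other RNA of the sample. Of the markers checked against the tissue label, Krt10, a keratin of the suprabasal epidermis, was among the brightest probe sets, with a signal of 31242, 25963 and 25240.3 in DNFB arrays, 23145, 24307 and 28329 in BAC arrays and 21085, 25698 and 18972 in vehicle arrays. Of 4 keratins listed for moist epithelia, only Krt13 lay at or below the 40th percentile on all 9 arrays. The other 3 were bright enough to be tested. The signals of the 4 together summed to between 133 and 306 per array. The 3' to 5' ratio of the Gapdh control probes, which rises as RNA degrades, was 0.841, 1.36 and 0.943 in DNFB arrays, 0.930, 0.932 and 0.917 in BAC arrays and 0.856, 0.869 and 0.880 in vehicle arrays. That of the actin control probes was 1.09, 1.28 and 1.23 in DNFB arrays, 1.18, 1.22 and 1.20 in BAC arrays and 1.05, 1.06 and 1.10 in vehicle arrays. In both ratios the 3 BAC arrays and DNFB arrays 2 and 3 lay above all vehicle arrays. DNFB array 2, with the highest value in both ratios, was also the lowest DNFB array in 40 of 52 tested members. Vehicle array 2 was the highest vehicle array in 34 of 52, BAC array 1 the lowest BAC array in 34, and the part of RNA quality or of single arrays in the results below was not tested beyond leaving each array out.

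Many cornified envelope genes were lower in ears treated with either compound than in vehicle ears, and no member passed the test in the other direction. With DNFB 30 of the 52 tested members fell and 0 rose, where 5.81% of all tested probe sets fell, 4.63% rose and 10.4% were called in either direction. With BAC 24 of 52 fell and 0 rose, where 5.25% of all tested probe sets fell, 4.91% rose and 10.2% were called in either direction. Across all probe sets, 51.7% of the BAC calls were falls, and 64.9% when each array was centred on its median. The median log2 change of the 52 members was -0.80 with DNFB and -0.55 with BAC, beside -0.03 and -0.02 over all tested probe sets. A call means an adjusted p under 0.05 from limma, with Benjamini-Hochberg adjustment over 29987 probe sets, and log2 changes are on the log2(signal + 16) scale with the standard error (SE) of the fit. Both comparisons share the 3 vehicle arrays.

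Every compound array lay below every vehicle array in 36 of 52 members for DNFB and in 31 of 52 for BAC, beside 15.5% and 17.2% of all tested probe sets. In whole skin, fewer keratinocytes of the late layers and less of these RNAs per cell cannot be told apart. Of the 56 probe sets, 4 were not tested because they lay above the 40th percentile in fewer than 3 arrays: Lce3a, Sprr3, the pseudogene Sprr2j-ps and the second Scel probe set. Without that filter, 29 of 56 fell with DNFB and 23 of 56 with BAC, beside 3.17% and 2.8% of all 45037 probe sets. Another 3 probe sets passed the filter only through some groups, Rptn 1420431_at through vehicle arrays, Sprr2i through BAC arrays, and Sprr2f through BAC and vehicle arrays together. Rptn 1420431_at is counted among the falls and the members without overlap for both compounds. It was tested only through the group where it was high, so it adds no support to those counts. Probe sets whose names end in _s_at, _x_at or _a_at, which can bind several transcripts, made up 14 of the 56; among the other 38 tested members 21 fell with DNFB and 18 with BAC.

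**Figure D1:**
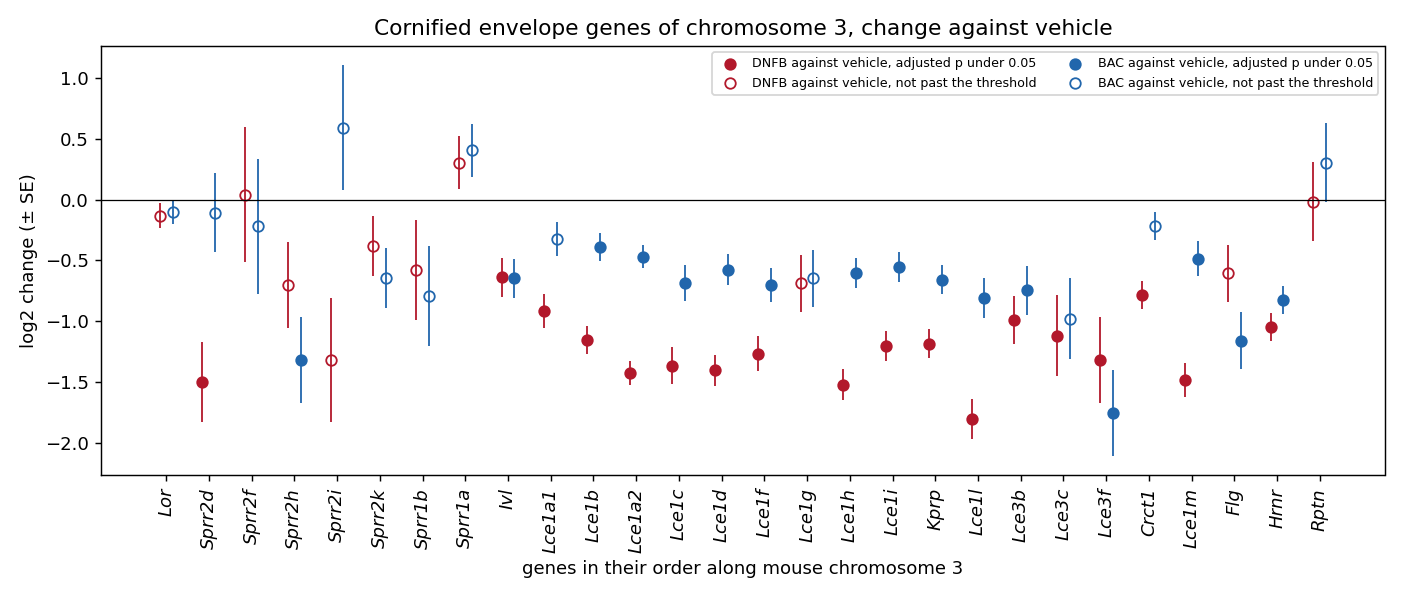
Log2 change against vehicle (points, with SE bars from limma over 3 arrays per group) for the tested member genes of chromosome 3, in their order along the chromosome, with 1 probe set per gene, that with the highest mean. DNFB is red and BAC blue, and filled points have an adjusted p under 0.05. From Ivl to Hrnr, all DNFB points except Lce1g and Flg are filled and below 0, while the Sprr genes to the left scatter on both sides of 0.

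The Lce1 genes, which encode late cornified envelope proteins of normal epidermis, moved most evenly. Of 13 probe sets of 11 genes, 12 fell with DNFB, with a median log2 change of -1.38, and 11 fell with BAC, with a median of -0.59. In all 13 the DNFB arrays lay below the vehicle arrays and so did the BAC arrays. The same 12 that fell with DNFB were also lower after DNFB than after BAC, with a median difference of -0.77. The exception was Lce1g, with a signal of 126 ± 40.7 in DNFB, 127 ± 23.0 in BAC and 207 ± 16.5 in vehicle arrays (SD, n = 3 each). The probe sets of Lce1d, Lce1h, Lce1i and Lce1m, and 1420677_x_at of Lce1a1, have names ending in _x_at or _s_at. They can bind several transcripts, so the 13 probe sets are not 13 separate results.

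Lce1h (Entrez gene 67718) had signals of 2369, 2053 and 2648 in DNFB arrays, 3921, 4536 and 4934 in BAC arrays and 5979, 7716 and 6712 in vehicle arrays. The 3 groups formed 3 separate steps, with DNFB lowest. Its log2 change was -1.52 ± 0.13 with DNFB, a 2.87-fold lower level (adjusted p = 1.85e-06), and -0.60 ± 0.13 with BAC, a 1.52-fold lower level (adjusted p = 0.00578). DNFB against BAC gave -0.92 ± 0.13 (adjusted p = 0.000439).

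Lce1l had signals of 228, 181 and 278 in DNFB arrays, 413, 479 and 511 in BAC arrays and 736, 805 and 962 in vehicle arrays. It showed the same 3 steps without overlap. Its changes were -1.80 ± 0.17 with DNFB and -0.81 ± 0.17 with BAC, and the difference between the compounds was -0.99 ± 0.17 (adjusted p = 0.00236). Lce1m had signals of 2345, 1786 and 2581 in DNFB arrays, 3827, 5186 and 4368 in BAC arrays and 5843, 5783 and 7112 in vehicle arrays. Its DNFB change of -1.48 ± 0.14 held with each array left out, but its BAC change of -0.49 ± 0.14 (adjusted p = 0.0421) was no longer called without BAC 1, BAC 3, vehicle 1, vehicle 2 or vehicle 3 (adjusted p = 0.154, 0.107, 0.0792, 0.0533 and 0.161). Lce1m was lower after DNFB than after BAC (95% interval of the log2 difference -1.30 to -0.69, adjusted p = 0.000695).

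Lce1a2 had the smallest adjusted p of any member with DNFB (3.76e-07), at 3388, 3009.8 and 3218 in DNFB arrays, 5822, 6457 and 6455 in BAC arrays and 8058, 9508 and 8418 in vehicle arrays. The largest DNFB change of any member was that of the dimmer Lce1f probe set (1449902_at), -2.01 ± 0.16, number 17 from the lowest of all 29987 tested, with a BAC change of -1.39 ± 0.16. The brighter Lce1f probe set gave -1.27 ± 0.14 and -0.70 ± 0.14, so the size of the change depended on the probe set while its direction did not. The other Lce1 genes, Lce1a1, Lce1b, Lce1c, Lce1d and Lce1i, had DNFB changes between -1.41 and -0.91.

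The BAC and between-compound calls of Lce1 genes were less stable than the DNFB calls. With DNFB, 12 or 13 Lce1 probe sets fell whichever array was left out, and 12 fell without the intensity trend in the variance. With BAC, the count was 7 without BAC array 1, 8 without vehicle array 3 and 2 without the trend, all 13 changes staying below 0. Between the compounds it was 8 without DNFB array 2 or BAC array 2, 8 with median-centred arrays and 6 without the trend. The calls of Lce1a2, Lce1b, Lce1d, Lce1h, Lce1l and Lce1m between the compounds held under all 19 alternatives.

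**Figure D2:**
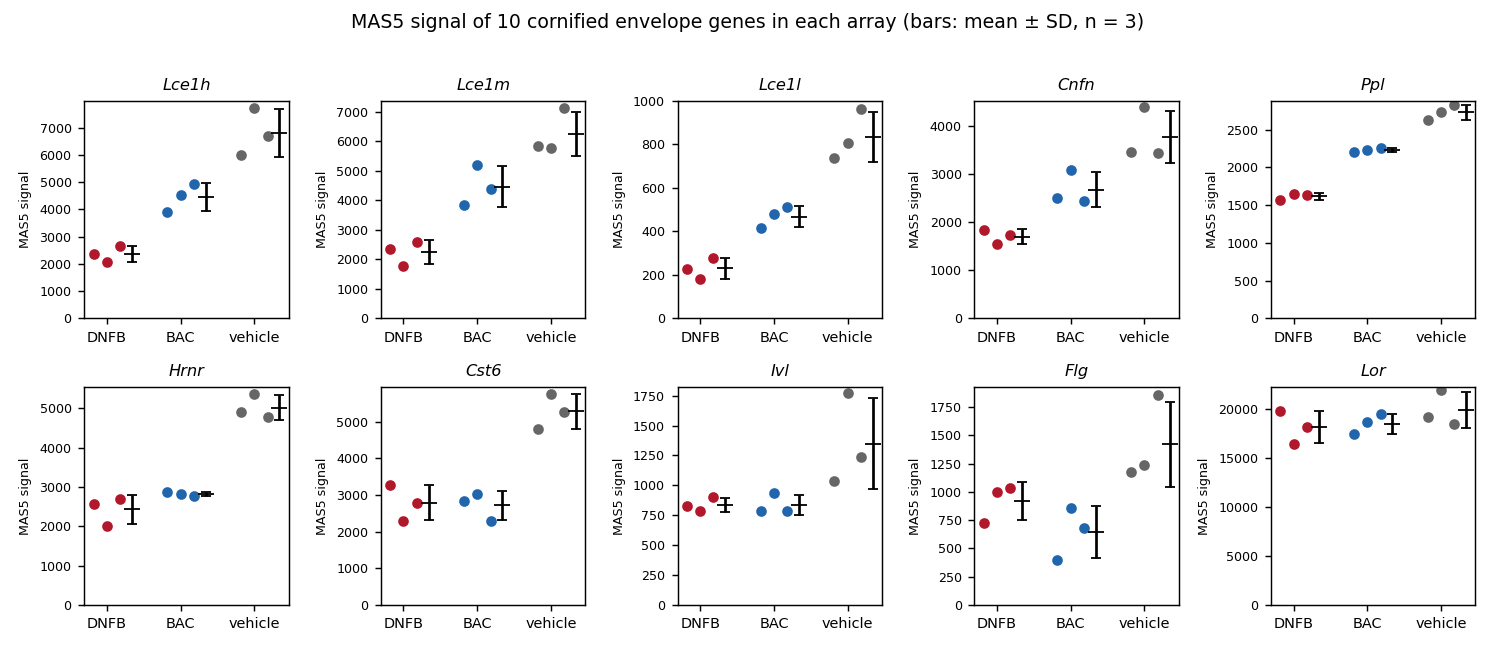
MAS5 signal (linear axis from 0) of 10 members on each array, with DNFB in red, BAC in blue and vehicle in grey and the mean ± SD over 3 arrays as a bar beside each group. Lce1h, Lce1m, Lce1l, Cnfn and Ppl show 3 separate steps with DNFB lowest, Hrnr, Cst6 and Ivl lie at a similar lower level with both compounds, and Lor overlaps between the groups.

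Promoter windows were read for 37 of the 44 genes from RefSeq GRCm38.p6, 250 bases before to 50 after the annotated start. Windows are shown for 3 Lce1 genes with large falls and for 2 Sprr2 genes. In the fit used here both Sprr2 genes were themselves called lower after DNFB than after BAC (Sprr2d -1.40, Sprr2i -1.91). Those calls were lost under 4 of 19 and 12 of 18 alternatives. Sprr2i was tested only through the BAC arrays, where it was high. The windows therefore do not set genes that fell against genes that did not. Any link between these letters and the changes was not tested. Capitals mark ATAAAAGG or TATAAA near position -30, and TGANTCA, the letters bound by AP-1 (Jun and Fos family) proteins, further upstream.
Lce1h, chr3:92765016-92765315, minus strand: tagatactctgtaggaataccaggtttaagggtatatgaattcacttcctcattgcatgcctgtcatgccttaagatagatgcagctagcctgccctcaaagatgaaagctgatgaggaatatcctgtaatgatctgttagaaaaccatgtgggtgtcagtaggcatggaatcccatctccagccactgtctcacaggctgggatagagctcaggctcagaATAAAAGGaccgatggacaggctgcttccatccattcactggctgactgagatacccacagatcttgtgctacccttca
Lce1l, chr3:92851237-92851536, minus strand: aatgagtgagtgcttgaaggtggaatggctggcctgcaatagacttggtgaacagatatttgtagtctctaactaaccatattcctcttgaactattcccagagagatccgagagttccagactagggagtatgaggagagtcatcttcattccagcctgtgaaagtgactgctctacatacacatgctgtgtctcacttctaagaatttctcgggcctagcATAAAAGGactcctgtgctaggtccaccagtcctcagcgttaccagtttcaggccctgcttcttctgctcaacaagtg
Lce1m, chr3:93019012-93019311, minus strand: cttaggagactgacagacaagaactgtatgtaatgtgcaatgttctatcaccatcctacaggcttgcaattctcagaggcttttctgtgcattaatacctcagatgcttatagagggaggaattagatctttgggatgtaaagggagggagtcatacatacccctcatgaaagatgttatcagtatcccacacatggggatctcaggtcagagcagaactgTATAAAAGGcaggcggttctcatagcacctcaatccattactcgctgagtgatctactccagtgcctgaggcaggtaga
Sprr2d, chr3:92338890-92339189, plus strand: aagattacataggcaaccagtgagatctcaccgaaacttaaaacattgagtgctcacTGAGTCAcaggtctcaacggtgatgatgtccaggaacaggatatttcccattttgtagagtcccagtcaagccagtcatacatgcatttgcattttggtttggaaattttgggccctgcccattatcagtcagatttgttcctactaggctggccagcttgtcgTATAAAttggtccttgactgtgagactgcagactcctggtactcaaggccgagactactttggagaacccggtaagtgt
Sprr2i, chr3:92407741-92408040, plus strand: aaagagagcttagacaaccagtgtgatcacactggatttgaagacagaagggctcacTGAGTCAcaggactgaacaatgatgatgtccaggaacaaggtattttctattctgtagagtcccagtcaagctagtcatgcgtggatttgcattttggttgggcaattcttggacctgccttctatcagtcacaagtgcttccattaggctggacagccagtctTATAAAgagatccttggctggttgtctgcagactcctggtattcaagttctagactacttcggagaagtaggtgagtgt
The run ATAAAAGG, searched on both strands after the windows had been read, was present in 8 of 10 Lce1 windows, at position -28 or -29 from the start, in 1 of 4 Lce3 windows and in 0 of 8 Sprr windows, beside 1.76% of 32851 windows in the table. In Lce1d and Lce1m it overlaps TATAAA. The run TATAAA was present in 2 of 10 Lce1 and 8 of 8 Sprr windows, beside 13.6% of all. TGANTCA was present in 0 of 10 Lce1 and 7 of 8 Sprr windows, beside 7.81% of all, and also in the windows of Ivl, Lor and Flg. The Krüppel-like letters CACCC were in 21 of 37 member windows (57.5% of all), the Grainyhead-like letters AACCNGTT in 2 of 37 (2.09%) and the C/EBP letters TTNNNCAA in 21 of 37 (36.7%), with 4 of 4 Lce3 and 1 of 10 Lce1 windows. Lce1 windows shared 51.0% to 86.0% of aligned bases with each other (median 66.2%, 45 pairs), and a median of 52.4% with Sprr windows.

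The Lce3 genes, whose human counterparts are induced in wounded and psoriatic skin, were tested for 3 members, of which 3 fell with DNFB and 2 with BAC. Without the intensity trend those counts were 1 and 0. Lce3f had signals of 235, 107 and 147 in DNFB arrays, 86.5, 159.6 and 96.0 in BAC arrays and 241, 779 and 363 in vehicle arrays. Each compound array lay below each vehicle array, although vehicle array 2 was 2.15 times the next vehicle array. Its changes were -1.32 ± 0.35 with DNFB (adjusted p = 0.0261) and -1.76 ± 0.35 with BAC (adjusted p = 0.00486), and the DNFB call ended without DNFB 2, DNFB 3, vehicle 2 or vehicle 3 (adjusted p = 0.109, 0.0686, 0.11 and 0.061).

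Lce3b fell by 0.99 ± 0.20 on the log2 scale with DNFB and by 0.75 ± 0.20 with BAC, and the BAC change was not called without BAC 1, BAC 3, vehicle 1 or vehicle 2 (adjusted p = 0.0811, 0.103, 0.0829 and 0.103). Lce3c had signals of 523, 337 and 575 in DNFB arrays, 422, 582 and 557 in BAC arrays and 571, 2143 and 892 in vehicle arrays, and its groups overlapped. Its DNFB change of -1.12 ± 0.33 (adjusted p = 0.0446) was lost under 13 of 19 alternatives, and without vehicle array 2 it was -0.60 (adjusted p = 0.136). No Lce3 gene passed between DNFB and BAC, with 95% intervals of -0.67 to 0.18 for Lce3b and -0.31 to 1.19 for Lce3f. Lce3a had signals of 15.3, 8.16 and 45.3 in DNFB arrays, 7.38, 18.2 and 8.30 in BAC arrays and 32.9, 212 and 100.2 in vehicle arrays and was too dim to test.

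The Sprr genes, which encode small proline-rich crosslinking proteins and are often raised in stressed epidermis, did not move as a family. Of 7 tested, 1 fell with DNFB (Sprr2d) and 1 with BAC (Sprr2h), and none rose. Without the intensity trend neither of these was called (adjusted p = 0.0714 and 0.123). Sprr2d had signals of 107, 162 and 155 in DNFB arrays, 275, 629 and 348 in BAC arrays and 253, 745 and 401 in vehicle arrays. The DNFB arrays lay below all others, while the BAC and vehicle arrays overlapped. Its change was -1.50 ± 0.33 with DNFB (adjusted p = 0.00775) and -0.11 ± 0.33 with BAC (adjusted p = 0.885). DNFB against BAC gave -1.40 ± 0.33 (adjusted p = 0.0228), not called without DNFB 1, DNFB 3 or BAC 2 (adjusted p = 0.0761, 0.0535 and 0.115). That difference was also not called without the intensity trend (adjusted p = 0.133).

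Sprr2i had signals of 7.24, 25.7 and 28.1 in DNFB arrays, 111, 144 and 95.6 in BAC arrays and 44.3, 221 and 30.4 in vehicle arrays. The DNFB and BAC arrays did not overlap, but all 3 DNFB signals lay at or below the 40th percentile, and the probe set was tested only because the BAC arrays lay above it. The fitted difference between the compounds was -1.91 ± 0.51 (adjusted p = 0.0441), -2.65 with a pseudocount of 1 and -1.10 with 64, so its size depended on the pseudocount. The call was lost under 12 of the 18 alternatives that tested it, including each DNFB and BAC array left out (adjusted p between 0.071 and 0.16). Against vehicle neither the DNFB change of -1.32 ± 0.51 (adjusted p = 0.124) nor the BAC change of 0.59 ± 0.51 (adjusted p = 0.528) passed.

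Sprr2h had signals of 289, 292 and 295 in DNFB arrays, 116, 289.8 and 184 in BAC arrays and 321, 1027 and 343 in vehicle arrays. The BAC arrays lay below the vehicle arrays, of which vehicle array 2 stood far above the others. Its BAC change of -1.32 ± 0.35 (adjusted p = 0.0266) was not called without BAC 1, BAC 3 or vehicle 2 (adjusted p = 0.107, 0.075 and 0.0885). Sprr1a had signals of 5190.4, 3267 and 3969 in DNFB arrays, 3560.0, 5635 and 4155 in BAC arrays and 2479, 4734 and 3047 in vehicle arrays, with changes of 0.30 ± 0.22 (adjusted p = 0.445) and 0.41 ± 0.22 (adjusted p = 0.274). Sprr1b, Sprr2k and Sprr2f passed in no comparison either.

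Vehicle array 2 stood apart in Lce3 and Sprr genes. It was at least 1.5 times the higher of the other vehicle arrays in 7 of 52 members, all of them Lce3 or Sprr genes (Lce3c, Lce3f, Sprr1a, Sprr1b, Sprr2d, Sprr2h and Sprr2i), beside 2.4% of all tested probe sets. Its Sprr1b signal was 3146, against 954.3 and 1159 in vehicle arrays 1 and 3. The neutrophil and keratinocyte alarm gene S100a9 was high on the same array, at 2633 against 451 and 352.1. Lce1 genes did not share this, since no Lce1 probe set reached that ratio. BAC array 2 stood apart in the same way in 7 members, among them Sprr1b, Sprr2d, Sprr2f, Sprr2h and Tgm1, beside 4.71% of all tested probe sets.

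**Figure D3:**
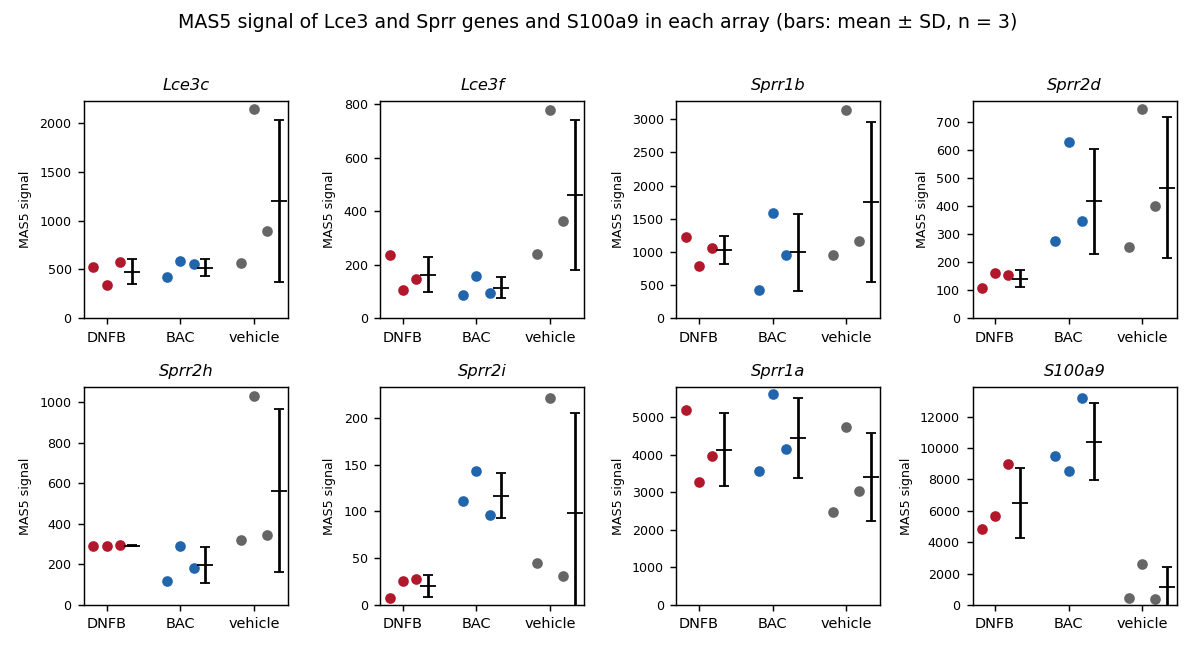
MAS5 signal (linear axis from 0) of Lce3c, Lce3f, 5 Sprr genes and S100a9 on each array, with DNFB in red, BAC in blue and vehicle in grey and the mean ± SD over 3 arrays as a bar. Vehicle array 2 is the highest vehicle array in each panel, and Sprr2d and Sprr2i are lowest with DNFB.

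Among the envelope precursors, Cnfn, Crct1, Kprp and Ivl fell with DNFB and the major precursor loricrin did not pass. Cnfn (cornifelin) had signals of 1841, 1534 and 1723 in DNFB arrays, 2494, 3089 and 2446 in BAC arrays and 3469, 4387 and 3433 in vehicle arrays. It formed 3 steps like the Lce1 genes, with changes of -1.13 ± 0.13 (adjusted p = 3.32e-05), -0.49 ± 0.13 (adjusted p = 0.0227) and, between the compounds, -0.65 ± 0.13 (adjusted p = 0.00744). Its BAC call ended without BAC 1, BAC 3 or vehicle 2 (adjusted p = 0.0797, 0.0929 and 0.0913). Without the intensity trend its BAC call (adjusted p = 0.119) and its call between the compounds (adjusted p = 0.0936) were lost. Kprp, a keratinocyte proline-rich protein whose gene lies among the Lce1 genes, fell by 1.19 ± 0.12 with DNFB and 0.66 ± 0.12 with BAC and was 0.53 ± 0.12 lower after DNFB than after BAC on the log2 scale, the last not called without DNFB 2, DNFB 3, BAC 2 or BAC 3 (adjusted p = 0.0597, 0.0566, 0.0601 and 0.0773). The Kprp difference was also not called with median-centred arrays (adjusted p = 0.0974) or without the intensity trend (adjusted p = 0.131). Crct1 (cysteine-rich C-terminal 1), between Lce3f and Lce1m, fell with DNFB (-0.79 ± 0.11, adjusted p = 0.00034) and did not pass with BAC (-0.22 ± 0.11, adjusted p = 0.257), and the difference was -0.56 ± 0.11 (adjusted p = 0.00912). That difference was not called with median-centred arrays (adjusted p = 0.0714) or without the intensity trend (adjusted p = 0.110), and Crct1 passed with BAC under quantile normalization (adjusted p = 0.0360).

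Ivl encodes involucrin, the early scaffold of the envelope. Its brighter probe set had signals of 827, 787 and 903 in DNFB arrays, 784, 933 and 789 in BAC arrays and 1037, 1769.8 and 1239 in vehicle arrays. Both compounds lay below all vehicle arrays and overlapped each other, with changes of -0.64 ± 0.16 (adjusted p = 0.019) and -0.65 ± 0.16 (adjusted p = 0.0184) and a difference of 0.01 (95% interval -0.34 to 0.35). The DNFB call ended without DNFB 1, DNFB 2 or vehicle 2 (adjusted p = 0.0522, 0.0653 and 0.0695), and the BAC call without BAC 1, BAC 3 or vehicle 2 (adjusted p = 0.0619, 0.0701 and 0.0707). Without the intensity trend both calls were lost (adjusted p = 0.105 and 0.0984). The dimmer Ivl probe set gave -0.80 and -0.84 and did not pass (adjusted p = 0.0646 and 0.0534).

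Lor, the loricrin gene, had signals of 19818, 16489 and 18187 in DNFB arrays, 17462, 18659 and 19493 in BAC arrays and 19246, 21979 and 18501 in vehicle arrays on its brightest probe set, 1448745_s_at. The groups overlapped, and the changes of -0.13 ± 0.10 (adjusted p = 0.476, 95% interval -0.35 to 0.08) and -0.10 ± 0.10 (adjusted p = 0.593, 95% interval -0.31 to 0.11) did not pass. The second bright Lor probe set, 1420183_at, gave -0.23 ± 0.10 (adjusted p = 0.159, 95% interval -0.43 to -0.02) and -0.05 ± 0.10. On it every DNFB array lay below every vehicle array, as in 15.5% of all tested probe sets. Under quantile normalization its DNFB change was -0.43 (adjusted p = 0.0041). For the brightest Lor probe set quantile normalization gave changes of -0.42 with DNFB (adjusted p = 0.00117) and -0.27 with BAC (adjusted p = 0.0232), so the call of Lor rests on how the arrays are scaled.

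The members with the highest signals were called against vehicle only under quantile normalization; signals of different probe sets do not compare amounts of RNA. Of the 5 such probe sets, those of Lor, Dmkn, Krtdap and 2 of Sbsn, 0 were called with either compound in the fit used here. Under quantile normalization 4 of the 5 were called lower with DNFB, all but Krtdap, and 1, that of Lor, with BAC. The highest signal of any probe set lay between 19986 and 31242 across arrays, and the brightest Lor probe set lay above the 99.8th percentile on each. Whether a fall can show in full this close to the top of the scale was not tested. Dmkn (dermokine), Krtdap (keratinocyte differentiation-associated protein) and Sbsn (suprabasin) are secreted proteins of the upper epidermis. Dmkn had changes of 0.02 ± 0.10 with DNFB and -0.04 ± 0.10 with BAC, turning to -0.22 with DNFB under quantile normalization (adjusted p = 0.0455). Krtdap had changes of 0.06 ± 0.10 and -0.14 ± 0.10. Sbsn gave -0.06 ± 0.11 and -0.11 ± 0.11 on its brightest probe set. Under quantile normalization the DNFB changes of the 2 bright Sbsn probe sets, 1439630_x_at and 1459897_a_at, were -0.29 (adjusted p = 0.0181) and -0.27 (adjusted p = 0.0180). By their endings both can bind several transcripts. In the fit used here the dimmer 1459898_at fell by 0.66 ± 0.11 with DNFB and 0.60 ± 0.11 with BAC, with signals of 4848, 4120.3 and 4925 in DNFB arrays, 5012, 5093 and 4328 in BAC arrays and 6803, 7709 and 7380.0 in vehicle arrays.

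Of the S100-fused proteins, hornerin fell with both compounds and filaggrin passed with BAC. Hrnr (hornerin, a filaggrin relative) had signals of 2567, 2017 and 2702 in DNFB arrays, 2869, 2813 and 2763 in BAC arrays and 4904, 5368 and 4771 in vehicle arrays. Every compound array was below every vehicle array, with changes of -1.05 ± 0.11 (adjusted p = 2.35e-05) and -0.83 ± 0.11 (adjusted p = 0.000203), both of which held under all 19 alternatives. DNFB and BAC did not differ past the threshold (-0.22, 95% interval -0.46 to 0.02).

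Flg (filaggrin) had signals of 723, 996 and 1035 in DNFB arrays, 395, 855 and 679 in BAC arrays and 1174, 1236 and 1852 in vehicle arrays. All compound arrays lay below the vehicle arrays. The BAC change was -1.16 ± 0.24 (adjusted p = 0.00516), the DNFB change -0.61 ± 0.24 (adjusted p = 0.124) and the difference 0.55 ± 0.24 (adjusted p = 0.213), so the compounds were not shown to differ in Flg. Without the intensity trend the BAC call was lost (adjusted p = 0.0613). Rptn (repetin) was dim, and its 3 probe sets disagreed. The one with the highest mean log2 signal, 1433210_at, had signals of 94.5, 44.0 and 79.4 in DNFB arrays, 87.7, 91.0 and 95.2 in BAC arrays and 64.8, 48.5 and 110.1 in vehicle arrays and overlapped. In contrast 1420431_at had 66.9, 37.7 and 52.9 in DNFB arrays, 17.8, 35.6 and 5.89 in BAC arrays and 179, 199 and 226 in vehicle arrays.

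That Rptn probe set was chosen for mention after its values were seen. Its BAC change of -2.68 ± 0.36 (adjusted p = 0.000157) was -3.58 and -1.67 with pseudocounts of 1 and 64. All 3 BAC signals lay at or below the 40th percentile, and without the vehicle arrays the probe set would not have been tested. Its DNFB change was -1.68 ± 0.36 (adjusted p = 0.00651), and adjusted p = 0.0514 without vehicle array 3. The third probe set, 1433211_at, gave -0.18 ± 0.31 with DNFB and 0.65 ± 0.31 with BAC and did not pass.

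The transglutaminases, which crosslink the envelope, passed with DNFB for Tgm1 and Tgm5 and not with BAC for any. Tgm1, the membrane-bound enzyme of keratinocytes, had signals of 346, 218 and 311 in DNFB arrays, 435, 682 and 444 in BAC arrays and 542, 761 and 581 in vehicle arrays. DNFB arrays lay below all others while BAC and vehicle arrays overlapped. The changes were -1.07 ± 0.20 (adjusted p = 0.00283) and -0.28 ± 0.20 (adjusted p = 0.438), and the compounds differed by -0.79 ± 0.20 (adjusted p = 0.0349), a call that ended without DNFB 2, DNFB 3, BAC 2 or BAC 3 (adjusted p = 0.125, 0.0669, 0.163 and 0.0506). That call was also lost with median-centred arrays (adjusted p = 0.0673), without the filter on dim probe sets (adjusted p = 0.0526) and without the intensity trend (adjusted p = 0.144). Tgm5 fell by 0.80 ± 0.19 with DNFB (adjusted p = 0.0119), ending without vehicle 2 or vehicle 3 (adjusted p = 0.0501 and 0.0538). Tgm3 had signals of 473, 336 and 349 in DNFB arrays, 400.3, 500.4 and 279 in BAC arrays and 767, 431 and 850.5 in vehicle arrays, where vehicle array 2 was the lowest. Its changes of -0.76 ± 0.24 and -0.75 ± 0.24 missed the threshold (adjusted p = 0.0603 and 0.0621) and passed without vehicle array 2 (adjusted p = 0.00707 and 0.00795).

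The plakins and sciellin, which anchor the envelope to keratin filaments and desmosomes, fell with DNFB in 3 of 3 tested probe sets. Ppl (periplakin) had signals of 1565, 1648 and 1637 in DNFB arrays, 2204, 2237 and 2257 in BAC arrays and 2633, 2733 and 2823 in vehicle arrays. Its arrays were tight within groups and separate between them. It fell by 0.75 ± 0.09 with DNFB (adjusted p = 9.46e-05), had a change of -0.29 ± 0.09 with BAC (adjusted p = 0.064) and was lower after DNFB than after BAC by 0.46 ± 0.09 (adjusted p = 0.00913). Ppl passed with BAC under quantile normalization (adjusted p = 0.0162) and 3 other alternatives, and the difference was not called with median-centred arrays (adjusted p = 0.124) or without the intensity trend (adjusted p = 0.0882).

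Evpl (envoplakin) had signals of 638, 546 and 699 in DNFB arrays, 808, 949 and 718 in BAC arrays and 835, 808 and 1142 in vehicle arrays. Its DNFB change of -0.54 ± 0.16 (adjusted p = 0.0365) was not called without DNFB 1, DNFB 2, vehicle 1 or vehicle 3 (adjusted p = 0.071, 0.13, 0.0576 and 0.182), and its BAC change was -0.16 ± 0.16 (adjusted p = 0.584). Evpl was also not called with DNFB under quantile normalization (adjusted p = 0.0603) or without the intensity trend (adjusted p = 0.134). Scel (sciellin) had signals of 1421, 1174 and 1189 in DNFB arrays, 1528, 1427 and 1247 in BAC arrays and 2103, 2342 and 2175 in vehicle arrays. It fell with both compounds, by 0.80 ± 0.12 and 0.65 ± 0.12, with a difference of -0.15 (95% interval -0.40 to 0.10). Averaging Scel with its second probe set, which had signals under 11 on every array, ended both calls (adjusted p = 0.0751 and 0.433).

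The proteases and inhibitor of the late layers gave mixed results. Cst6 encodes cystatin M/E, an inhibitor of the proteases that process transglutaminases. Its signals were 3272, 2302 and 2796 in DNFB arrays, 2830.2, 3041 and 2285 in BAC arrays and 4818, 5773 and 5276 in vehicle arrays. Every compound array lay well below the vehicle arrays, with changes of -0.93 ± 0.14 (adjusted p = 0.000374) and -0.96 ± 0.14 (adjusted p = 0.000283) that held under all 19 alternatives, and the difference between the compounds was 0.03 (95% interval -0.26 to 0.32). Asprv1, the retroviral-like protease that cleaves profilaggrin, had signals of 6083, 5097 and 5297 in DNFB arrays, 6329, 8159.7 and 8347 in BAC arrays and 8693, 9885 and 8687 in vehicle arrays. It fell with DNFB (-0.73 ± 0.12, adjusted p = 0.000809) and did not pass with BAC (-0.26 ± 0.12, adjusted p = 0.181). The difference of -0.46 ± 0.12 (adjusted p = 0.0335) was not called without DNFB 2, DNFB 3, BAC 2 or BAC 3 (adjusted p = 0.114, 0.101, 0.139 and 0.12), with median-centred arrays (adjusted p = 0.153), without the filter on dim probe sets (adjusted p = 0.0768) or without the intensity trend (adjusted p = 0.177). Asprv1 passed with BAC under quantile normalization (adjusted p = 0.0186).

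Casp14, the caspase that helps break down filaggrin, had 2 probe sets that disagreed. The one with the higher mean log2 signal, 1443787_x_at, had signals of 193, 233 and 181 in DNFB arrays, 181, 263 and 280.1 in BAC arrays and 184, 119.5 and 239.7 in vehicle arrays and overlapped. By its ending it can bind several transcripts. The other, 1418748_at, had signals of 187, 182 and 201 in DNFB arrays, 125, 185 and 54.5 in BAC arrays and 258, 347 and 453 in vehicle arrays. It fell with BAC (-1.52 ± 0.30, adjusted p = 0.00444) under all alternatives that tested it, with a DNFB change of -0.81 ± 0.30 (adjusted p = 0.108).

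DNFB and BAC were compared directly to see where the allergen and the irritant differed. Of 52 members 20 were lower after DNFB and 0 higher, where 3.0% of all tested probe sets were lower, 1.95% higher and 4.96% called in either direction. Without the filter on dim probe sets it was 15 of 56, beside 1.6% of all. The 20 were 12 Lce1 probe sets, Cnfn, Crct1, Kprp, Tgm1, Ppl, Asprv1, Sprr2d and Sprr2i. Sprr2i was tested only through the BAC arrays, where it was high. Its place among the 20, and among the members without overlap counted below, therefore adds no support. The median difference over the 52 was -0.23, beside -0.01 over all tested probe sets. Members outside the Lce1 genes were lower in 8 of 39, with a median of -0.10. The arrays did not overlap, with DNFB lower, in 23 of 52 members (11.8% of all tested probe sets) and, with DNFB higher, in 2 of 52 members (3295 of 29987 tested probe sets). Those 2 were Rptn 1420431_at and Krtdap. With no dose known, this compares the ears as treated.

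The count of 20 depended on single arrays and on the scaling. It was 12 without DNFB array 2, 12 without DNFB array 3, 11 without BAC array 2, 13 without BAC array 3, 10 with median-centred arrays and 6 without the intensity trend. In each case none was higher after DNFB. Against vehicle, 21 probe sets of 20 genes fell with both compounds, 9 fell with DNFB and missed the threshold with BAC, and 3 fell with BAC and missed it with DNFB (Flg, Casp14 1418748_at and Sprr2h). Of those 9, Tgm1, Crct1, Ppl, Asprv1, Sprr2d and the Lce1a1 probe set 1420677_x_at were also called lower after DNFB than after BAC. Tgm5, Evpl and Lce3c were not, and for the 3 with BAC alone the difference did not pass.

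**Figure D4:**
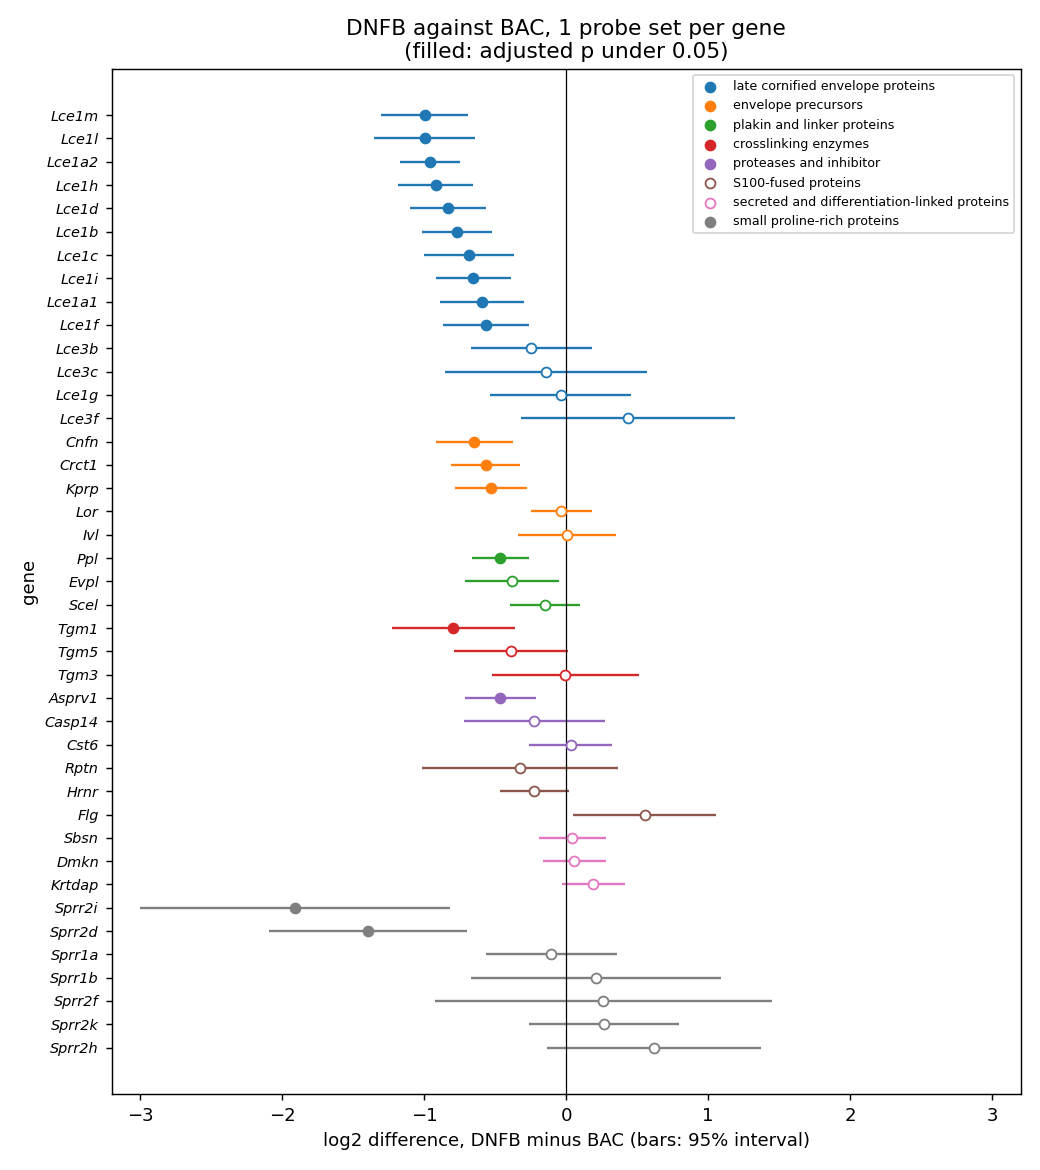
Log2 difference, DNFB minus BAC, with 95% intervals from limma (3 arrays per group), for each tested member gene through the probe set with the highest mean, grouped by role. Filled points have an adjusted p under 0.05; all lie below 0 and most are Lce1 genes, while Ivl, Cst6, Lor and Dmkn sit near 0.

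Other genes of the epidermal barrier were counted from lists of known functions. Of 17 barrier lipid genes 12 fell with DNFB and 6 with BAC, of 14 desquamation proteases and inhibitors 8 and 6, and of 11 desmosome genes 8 and 5, with 0 rises, beside falls in 5.81% and 5.25% of all tested probe sets. Without the intensity trend the lipid counts were 4 and 1 and the desmosome counts 3 and 1. The 12 lipid genes were 6 without DNFB array 2 and 7 without vehicle array 3, and the 6 with BAC were 1 without BAC array 3 or vehicle array 3, 2 without vehicle array 1 and 3 without vehicle array 2. The 8 desmosome genes were 5 without DNFB array 3, and the 5 with BAC were 3 without BAC array 1 or BAC array 3. Median log2 changes were -0.61 and -0.46 for lipid genes, -0.59 and -0.48 for desquamation genes, and -0.57 and -0.40 for desmosome genes. Cdsn, corneodesmosin, which holds cornified cells together, had changes of -1.37 ± 0.26 with DNFB and -1.26 ± 0.26 with BAC. Spink5, the inhibitor of kallikrein proteases, had -1.15 ± 0.16 and -0.78 ± 0.16. Without the intensity trend both Cdsn calls (adjusted p = 0.0566 and 0.0705) and the BAC call of Spink5 (adjusted p = 0.0690) were lost.

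Elovl4, which makes the very long fatty acids of barrier ceramides, passed with DNFB and not with BAC. Its signals were 2997, 2506 and 2337 in DNFB arrays, 6663, 6557 and 5488 in BAC arrays and 7106, 6693 and 6923 in vehicle arrays, and DNFB lay below all others. Its changes were -1.40 ± 0.11 with DNFB (adjusted p = 1.48e-06), -0.15 ± 0.11 with BAC (adjusted p = 0.444) and -1.25 ± 0.11 between the compounds (adjusted p = 9.72e-06). Klk6, a kallikrein protease, fell by 1.07 ± 0.21 with DNFB, had -0.03 ± 0.21 with BAC and differed by -1.04 ± 0.21 (adjusted p = 0.00822, 0.0517 without BAC array 2 and 0.0893 without the intensity trend).

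Of 5 keratins of activated epidermis, 2 fell and 0 rose with DNFB, 0 fell and 2 rose with BAC, and 3 were lower after DNFB than after BAC. Over all tested probe sets, 5.81% fell and 4.63% rose with DNFB, and 5.25% fell and 4.91% rose with BAC. Between the compounds 3.0% were lower after DNFB. The 2 rises with BAC, Krt6a and Krt16, were 0 without BAC array 2, vehicle array 1 or vehicle array 3, 1 without BAC array 1, BAC array 3 or vehicle array 2, and 0 without the intensity trend or the filter on dim probe sets. Krt16 had a BAC change of 1.27 ± 0.36 (adjusted p = 0.035), not called without BAC 2, BAC 3, vehicle 1 or vehicle 3 (adjusted p = 0.165, 0.0663, 0.142 and 0.156). Krt6a had signals of 864, 510.0 and 587 in DNFB arrays, 2369, 2656 and 1436 in BAC arrays and 1265, 1302 and 1212 in vehicle arrays. BAC lay above vehicle and DNFB below it, with changes of -0.96 ± 0.21 (adjusted p = 0.00665) and 0.72 ± 0.21 (adjusted p = 0.0369) and a difference of -1.68 ± 0.21 (adjusted p = 0.000163). The BAC rise was not called without BAC 1, BAC 2, vehicle 1, vehicle 2 or vehicle 3 (adjusted p = 0.119, 0.169, 0.0955, 0.0705 and 0.107). Median-centred arrays also ended the BAC rise of Krt6a (adjusted p = 0.055). Its DNFB fall was lost without the intensity trend (adjusted p = 0.072). Krt17 changed by -1.38 ± 0.16 with DNFB and differed by -1.73 ± 0.16 from BAC, but averaging all its probe sets ended the first call (adjusted p = 0.398). Of 9 basal and suprabasal keratins 5 fell with DNFB and 2 with BAC, led by Krt80 (-1.04 ± 0.11) and Krt15 (-0.81 ± 0.16). The 5 were 3 without DNFB array 2 or vehicle array 3 and 2 without the intensity trend, under which the 2 with BAC were 1.

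Among 30 regulators of late differentiation, 11 fell and 7 rose with DNFB, and 5 fell and 9 rose with BAC, so the list went both ways. The 5 were 3 without BAC array 2 or BAC array 3. Over all tested probe sets, 5.81% fell and 4.63% rose with DNFB, and 5.25% fell and 4.91% rose with BAC. The rises were led by subunits of AP-1: Fosl1 had 1.92 ± 0.14 and 1.87 ± 0.14, and Jun 1.62 ± 0.13 and 2.52 ± 0.13. Trp63, the master regulator of the epidermal lineage, had signals of 730.2, 807 and 788 in DNFB arrays, 1715, 1703 and 1415 in BAC arrays and 1599.5, 1705 and 1722 in vehicle arrays. DNFB was lowest without overlap, and the difference from BAC was -1.04 ± 0.11 (adjusted p = 5.27e-05). Zfp750, a factor of epidermal differentiation, differed by -1.44 ± 0.12 (adjusted p = 6.76e-06), with -0.99 ± 0.12 for DNFB and 0.45 ± 0.12 for BAC, the BAC call ending without BAC 1, BAC 2, vehicle 1, vehicle 2 or vehicle 3 (adjusted p = 0.0915, 0.0982, 0.0938, 0.0719 and 0.0671). The BAC call of Zfp750 was also lost with median-centred arrays (adjusted p = 0.107) and without the intensity trend (adjusted p = 0.106).

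Markers of other cells moved with the treatments, and their counts stand beside rises in 4.63% of all tested probe sets with DNFB and 4.91% with BAC, and falls in 5.81% and 5.25%. Of 6 neutrophil markers 5 rose with DNFB and 6 with BAC, with summed signals of 10787 to 20438 in DNFB arrays, 19207 to 27881 in BAC arrays and 1207 to 5698 in vehicle arrays. Of 7 skeletal muscle markers 4 rose with DNFB and 0 with BAC, with sums of 35044 to 42249 in DNFB, 26812 to 42268 in BAC and 23649 to 30482 in vehicle arrays, but 0 rose with DNFB without DNFB array 2 or vehicle array 1, 1 without DNFB array 3 or vehicle array 2, and 2 without BAC array 2. Of 7 fibroblast markers 2 rose with DNFB and 1 with BAC, with sums of 72364 to 83247 in DNFB, 66030 to 76593 in BAC and 57077 to 66049 in vehicle arrays. Those 2 were 1 without DNFB array 1, DNFB array 2, vehicle array 1 or vehicle array 3 and 4 without BAC array 3, and the 1 with BAC was 0 without any 1 of the BAC or vehicle arrays. Of 6 basal keratinocyte markers 3 fell with DNFB and 1 with BAC, with sums of 18145 to 21683 in DNFB, 23348 to 25400 in BAC and 25405 to 26033 in vehicle arrays. The 3 were 1 without DNFB array 2 or vehicle array 1, and the 1 with BAC was 0 without BAC array 2, BAC array 3, vehicle array 1 or vehicle array 2. Of 5 spinous markers, among them Krt1 and Krt10, 4 and 3 fell, while Krt10, the brightest, had 0.33 ± 0.12 and 0.21 ± 0.12 and did not pass. Of 10 S100 and annexin genes 3 rose and 1 fell with DNFB, and 2 rose and 0 fell with BAC, led by S100a9 (3.03 ± 0.50 and 3.74 ± 0.50) and S100a8 (2.88 ± 0.45 and 3.58 ± 0.45). S100a8 and S100a9 are also neutrophil markers, and the 2 rises with BAC were theirs. All 5 spinous markers, and Krt5, Krt14 and Trp63 of the basal markers, were also counted above among keratins, desmosome genes or regulators. The lists are therefore not separate results. Smaller counts were called among endothelial markers (2 of 5 rose with DNFB, 1 with BAC), macrophage markers (2 of 5 and 1), cartilage markers (1 of 4 and 0) and sebocyte markers (1 rose and 2 fell of 5 with DNFB, 0 with BAC). The 2 macrophage rises with DNFB were 0 without vehicle array 3 and 1 without DNFB array 2, DNFB array 3, BAC array 1, vehicle array 1 or vehicle array 2, and the 1 with BAC was 0 without BAC array 2 or vehicle array 3. The cartilage and sebocyte rises with DNFB were 0 without DNFB array 2, DNFB array 3, vehicle array 1 or vehicle array 3, and the endothelial rise with BAC was 0 without BAC array 1 or vehicle array 2. The 2 sebocyte falls were 1 without DNFB array 2, DNFB array 3 or any 1 vehicle array. Of 4 Langerhans cell markers 2 fell with DNFB, and 1 rose and 1 fell with BAC, the 2 being 1 without vehicle array 1 and the fall with BAC 0 without BAC array 1, BAC array 3 or any 1 vehicle array. Of 10 hair follicle markers 1 fell with each compound (3 with BAC without BAC array 2), and no T cell, melanocyte or oral epithelium marker was called. The part of these shifts in the lower signals of the envelope genes was not tested.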

How the data were processed

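Total RNA of ear skin was hybridised to 9 Affymetrix mouse arrays, 3 per treatment, and the authors deposited MAS5 signal intensity values scaled to a common trimmed mean, per the file headers. No present or absent calls were used here. Control probe sets (64 of 45101) were left out, and 34945 probe sets had 1 gene symbol in the platform annotation, 932 had several and 9160 were not listed. Values were taken as log2(signal + 16). Probe sets above the array's 40th percentile in at least 3 of 9 arrays were tested (29987) with limma 3.58.1 in R 4.3.3, two-sided, on all 9 arrays with a mean per treatment and an intensity trend in the variance, with Benjamini-Hochberg adjustment over all of them calling adjusted p under 0.05. With 3 arrays against 3, exact permutation p-values cannot go below 0.1. Each probe set was tested on its own, and the one of highest mean log2 signal stands for a gene where none is named. Any member could be named, and from each other list up to 2 genes with the largest called change per comparison. The script was tested on simulated data. The members and lists were chosen with earlier results of these data known. The number of arrays limits the precision. The alternatives were other pseudocounts, filters, normalizations and summaries per gene, no intensity trend, a replicate block, and each array left out.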

Additional observations from a re-analysis of the deposited data

How the results depend on the processing

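The counts of members that fell, 30 with DNFB, 24 with BAC and 20 between DNFB and BAC, ranged with 1 array left out over 25 to 31 (25 without vehicle 3), 16 to 26 (16 without BAC 1) and 11 to 20 (11 without BAC 2). Without the intensity trend they were 9 with BAC and 6 between the compounds, and with median-centred arrays 10 between the compounds. Median member changes with 1 array left out were -0.93 to -0.74, -0.62 to -0.44 and -0.34 to -0.17. Over all probe sets the called counts were 3130 with DNFB (1596 without the trend, 2019 with 1 probe set per gene, 1488 with gene means, 1827 to 3038 with 1 array left out), 3045 with BAC (1608 without the trend, 1607 with gene means, 1699 to 3355 with 1 array left out) and 1487 between the compounds (988 with median-centred arrays, 539 without the trend, 753 with gene means, 751 to 1462 with 1 array left out). Dmkn turned to -0.22 with DNFB under quantile normalization. The cause was not tested. Of the member calls, 22 of 30, 8 of 24 and 6 of 20 held under every alternative that tested them, 17 to 19 each. Whether replicate numbers pair the arrays is not known from the labels. Same-numbered arrays of different groups had deviations that correlated between -0.0623 and 0.112, and other pairs between -0.107 and 0.0883. With 3 arrays per group these values cannot tell whether 2 ears came from 1 mouse. With the replicate block the members that fell numbered 31, 23 and 19, and all calls 3008, 2884 and 1360. Flg then passed with DNFB (adjusted p = 0.0352), and Lce1b with BAC (adjusted p = 0.0616) and Asprv1 between the compounds (adjusted p = 0.0563) no longer did.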
